A study of Mus musculus with 6 samples.

Results

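The 10 cytokine and chemokine genes described here encode secreted factors that activated B cells can make: *Ccl3*, *Ccl4*, *Ccl17*, *Ccl22*, *Cxcl10*, *Il6*, *Il10*, *Il12a*, *Tgfb1* and *Csf1*. They were taken by gene symbol from the table of estimated counts, where all 10 were among 24499 genes, and 7 of them were high enough to be tested beside 13296 genes in all. *Ccl4*, *Ccl17* and *Il6* were too low to measure. RNA-seq covered in vitro germinal center B cells (iGCBs) from 3 cKO mice, which carried *Eif3e* fl/fl with Cγ1-Cre and the Rosa26-YFP LSL reporter, and from 3 control mice, all C57BL/6J, with 1 library per mouse. The sample titles call the controls only "control", and their library names hold "cgWT", which is not explained. The genotype of these controls is not given further for this experiment. The study used controls of several genotypes, and a legend on mice of another experiment gives them as carrying Cγ1-Cre with Rosa26-YFP LSL. Sorting YFP+ cells from both groups requires the Cre and the reporter in both. Cre activity follows expression of the Ig γ1 constant region locus in activated B cells, and the ages of these mice are not given in the sources used here. Naïve splenic B cells were cultured with IL-4 at 1 ng/ml over irradiated (120 Gy) 40LB cells, which are BALB/c 3T3 fibroblasts made to express CD40L and BAFF, and YFP+ cells were sorted on day 3.

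Chemokines are small secreted proteins that draw cells carrying the matching receptor, and cytokines carry signals between immune cells. CCL17 and CCL22 bind CCR4, which is carried by several kinds of T helper cell and by regulatory T cells, and B cells are known to make both after CD40 and IL-4 signals. CCL3 and CCL4 draw T cells and monocytes, and CXCL10 draws CXCR3+ T cells. IL-10 and TGF-β1 restrain immune responses, IL-6 supports germinal centers and plasma cells, IL-12 p35 (*Il12a*) is 1 chain of IL-12 and of IL-35, and CSF1 maintains macrophages.

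Totals were 39079582 to 45504570 estimated counts per library, and values are given in CPM, which are counts scaled to a common library total with edgeR's TMM factors. *Eif3e*, the deleted gene, averaged 158 ± 13.1 CPM in the cKO group against 406 ± 16.5 CPM in the control group (SD, n = 3 each), with no overlap, in the direction the labels state. B cell markers summed to 5224 to 5445 CPM in cKO and 5090 to 5507 CPM in control libraries, and some transcripts of other cell types were present too, such as the fibroblast gene *Col1a1* with 1229 to 2903 counts and the myeloid gene *Cd68* with 322 to 422 counts. *Xist*, which is transcribed from the inactive X chromosome, was high in cKO replicate 2 and control replicates 1 and 2 and had at most 16 counts in the other 3 libraries. The labels give no sex. In bulk RNA, fewer cells that make a transcript and less of it per cell cannot be told apart.

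Among the 7 tested genes, 3 were higher in cKO at an adjusted p under 0.05 (*Ccl22*, *Cxcl10*, *Csf1*), 2 were lower (*Tgfb1*, *Il10*) and 2 did not pass (*Il12a*, *Ccl3*). Across all tested genes, 24.1% were higher and 24.5% were lower by the same rule, so calls in either direction were common. With a fold change over 1.5 as well, the study's cutoffs, *Ccl22* and *Cxcl10* were higher and *Il10* was lower, where 10.4% of all tested genes were higher and 10.6% were lower. For 5 of the 7, the ranges of the cKO and control libraries were apart, compared with 58.7% of all tested genes. The median log2 fold change of the 7 was 0.26, and that of all tested genes was −0.0040. These shares are those of a small set, and nothing is read from them about cytokine genes in general.

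The upstream sequences of the 3 genes that were higher are shown because they differ in the letters that known cytokine regulators bind. RefSeq windows of GRCm38.p6 were matched for 8 of the 10 genes, and *Ccl4* and *Il10* had no entry. Windows of 250 bases before the RefSeq start site were searched. Each line gives the window 5′ to 3′ on the gene's strand, in lower case with motif matches in capitals: *Ccl22* at chr8:94745434-94745589 on the plus strand, *Cxcl10* at chr5:92348890-92349139 on the minus strand and *Csf1* at chr3:107760470-107760719 on the minus strand. For *Ccl22* the first 156 bases are shown, because GENCODE starts the gene 94 bases before the RefSeq start site.
Ccl22: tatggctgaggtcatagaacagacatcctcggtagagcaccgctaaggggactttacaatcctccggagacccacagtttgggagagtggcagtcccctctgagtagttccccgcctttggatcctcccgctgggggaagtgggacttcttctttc
Cxcl10: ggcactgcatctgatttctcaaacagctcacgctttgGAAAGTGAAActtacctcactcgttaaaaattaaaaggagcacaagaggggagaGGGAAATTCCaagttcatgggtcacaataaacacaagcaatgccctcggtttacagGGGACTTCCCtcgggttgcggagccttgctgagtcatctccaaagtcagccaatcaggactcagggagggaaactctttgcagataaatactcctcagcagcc
Csf1: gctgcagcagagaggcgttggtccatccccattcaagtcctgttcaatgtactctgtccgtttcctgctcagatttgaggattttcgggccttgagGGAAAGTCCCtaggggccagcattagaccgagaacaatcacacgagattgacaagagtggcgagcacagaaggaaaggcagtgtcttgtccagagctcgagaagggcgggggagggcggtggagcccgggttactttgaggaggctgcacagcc

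The motifs searched on both strands were the κB consensus, TTCNNNNGAA (the STAT6 type), GAAANNGAAA (the interferon response type) and TATAAA. The κB consensus was present in 3.9% of all 32851 such RefSeq windows, TTCNNNNGAA in 5.85%, GAAANNGAAA in 2.98% and TATAAA in 12.4%. *Cxcl10* held 2 κB matches, GGGAAATTCC at −159 to −150 and GGGACTTCCC at −103 to −94 counted from the start site, and 1 interferon response match, GAAAGTGAAA at −213 to −204. *Csf1* held 1 κB match, GGAAAGTCCC at −154 to −145 on the opposite strand. *Ccl22* held none of the motifs in this window. Matches were not limited to genes that were measured well. *Il6* held the κB match GGGATTTTCC at −44 to −35, *Ccl17* held TTCTCTGGAA, and the windows of the 2 start sites of *Il12a* held TTCCAAGGAA and TTCTTTAGAA. A match describes the letters only, and no factor was measured at these sites.

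Among the chemokine genes listed here *Ccl22* had by far the most counts, and it was higher in cKO iGCBs. *Ccl22* lies at chr8:94745590-94751699 on the plus strand (GRCm38, GENCODE M21, as for all gene locations here). The cKO libraries, in the order of their replicate numbers here and below, had 18727, 20052 and 12082 estimated counts, and the control libraries had 5772, 5326 and 4935. In CPM, these were 413, 446 and 285 in cKO and 128, 136 and 120 in control libraries. The control libraries were close together, cKO replicate 3 was the lowest of its group, and the groups did not overlap. The means were 381 ± 85.0 CPM in cKO and 128 ± 7.83 CPM in control (SD, n = 3 each), a 2.98-fold difference and a log2 fold change of 1.58 (standard error 0.138, 95% interval 1.27 to 1.88). Its adjusted p was 1.2e-05 in edgeR's quasi-likelihood fit, which gives all adjusted p-values here unless another tool is named. The call was the same under all 16 alternatives.

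*Ccl17*, the neighbor of *Ccl22* at chr8:94810453-94812036 and a ligand of the same receptor, had few counts: 0, 0 and 7 counts in cKO and 0, 3 and 0 counts in control libraries, and was not tested. The 58.8 kb between the 2 genes thus separated a gene with 4935 or more counts in every library from one with 0 counts in 4 of 6. A count of 0 allows up to 3 counts, or 0.0661 to 0.0763 CPM across the libraries, which covers only counting error and takes each count as 1 fragment. In the gene table, counts of 3 and 4 occurred 1441 and 1975 times and counts of 2 and 5 occurred 730 and 699 times, so 1 fragment may stand for several counts and very low values are less precise than their counts.

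*Cxcl10* lies at chr5:92346638-92348889 on the minus strand and was low but higher in cKO. It had 199, 200 and 212 counts in cKO and 76, 52 and 90 counts in control libraries, or 4.39, 4.45 and 5.00 CPM in cKO and 1.68, 1.32 and 2.19 CPM in control. Every cKO library was above every control library, and the cKO libraries were close together. The means were 4.61 ± 0.338 and 1.73 ± 0.433 CPM (SD, n = 3 each), a 2.66-fold difference and a log2 fold change of 1.41 (standard error 0.235, 95% interval 0.89 to 1.93, adjusted p = 0.000689). *Cxcl10* lies within *Art3*, which is on the other strand. *Art3* had 0, 2 and 11 counts in cKO and 0 counts in all control libraries, so it had few counts of its own. Whether the counting used strand is not given.

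*Ccl3* (chr11:83647844-83649355, minus strand) and *Ccl4* (chr11:83662584-83664683, plus strand) lie 13.2 kb apart, and both were near the limit of measurement. *Ccl3* had 16, 4 and 40 counts in cKO and 38, 19 and 53 counts in control libraries. The groups overlapped, with cKO replicate 3 above control replicates 1 and 2. Among libraries of like *Xist* level, described last, they did not overlap, but each such comparison set 1 library against 2 and says little. With *Xist* as a covariate the log2 fold change was −1.72 and did not pass (adjusted p = 0.0813). Means were 0.461 ± 0.437 CPM in cKO and 0.871 ± 0.403 CPM in control (SD, n = 3 each). The log2 fold change of −0.92 had a 95% interval of −2.56 to 0.72 and did not pass the test (adjusted p = 0.333), and it ranged from −1.97 without cKO replicate 3 to −0.43 without cKO replicate 2. *Ccl4* had 4, 10 and 4 counts in cKO and 6, 0 and 13 counts in control libraries and was not tested. The difference in *Ccl3* thus did not pass at this depth, and nothing is read about a difference in *Ccl4*.

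**Figure D1:**
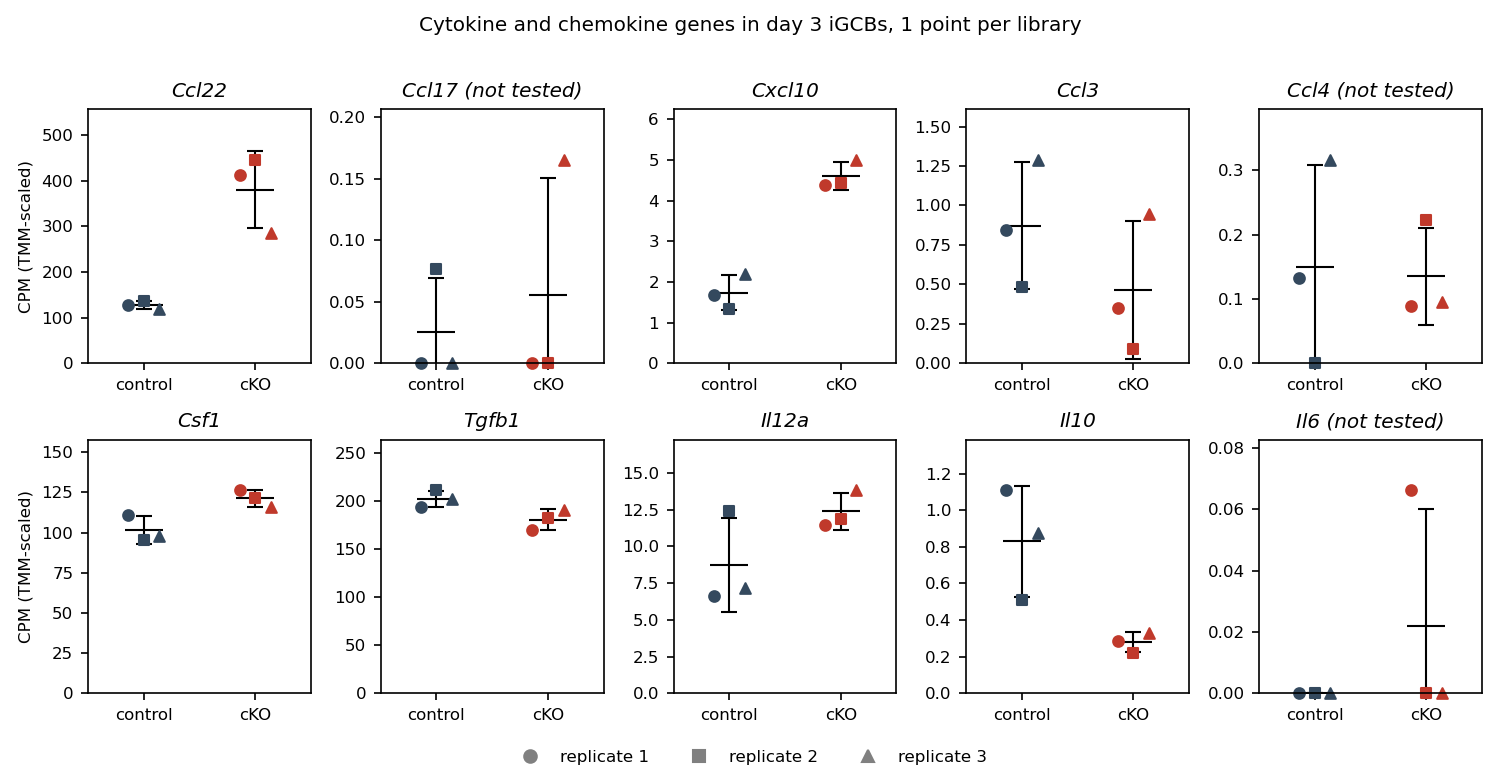
CPM of the 10 cytokine and chemokine genes in 3 control and 3 cKO libraries, with each point 1 library, the marker shape its replicate number, the bar the group mean and the whiskers the SD. The groups separate for *Ccl22*, *Cxcl10*, *Csf1*, *Tgfb1* and *Il10*, and the 3 genes that were not tested lie at or near 0.

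*Csf1* and *Tgfb1* had at least 3753 counts in every library, and their differences were small. *Csf1*, the macrophage growth factor, lies at chr3:107741048-107760469 on the minus strand. It had 5729, 5474 and 4925 counts in cKO and 5022, 3753 and 4026 counts in control libraries, or 126, 122 and 116 CPM against 111, 95.5 and 97.8 CPM. The groups did not overlap, though cKO replicate 3 and control replicate 1 were close. *Csf1* was 1.2-fold higher in cKO, at 121 ± 5.08 against 102 ± 8.54 CPM (SD, n = 3 each), for a log2 fold change of 0.26 (standard error 0.0681, 95% interval 0.11 to 0.41, adjusted p = 0.0102). The call held under all 16 alternatives. The upper bound of the interval is below the 1.5-fold cutoff.

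*Tgfb1*, which encodes the latent precursor of TGF-β1, lies at chr7:25687002-25705077 on the plus strand. It had 7717, 8211 and 8101 counts in cKO and 8750, 8312 and 8334 counts in control libraries, or 170, 182 and 191 CPM against 194, 211 and 202 CPM. The highest cKO library lay just below the lowest control library. *Tgfb1* was 1.12-fold lower in cKO, at 181 ± 10.5 against 203 ± 8.80 CPM (SD, n = 3 each), for a log2 fold change of −0.16 (standard error 0.0581, 95% interval −0.29 to −0.032, adjusted p = 0.0419). The call was lost under 9 of 16 alternatives, among them those without cKO replicate 1 (adjusted p = 0.154), cKO replicate 2 (0.0877), control replicate 2 (0.122) or control replicate 3 (0.0822), while the direction held in all 16.

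*Il12a* lies at chr3:68690644-68698547 on the plus strand. It had 521, 535 and 586 counts in cKO and 299, 489 and 295 counts in control libraries, or 11.5, 11.9 and 13.8 CPM against 6.63, 12.4 and 7.16 CPM. Control replicate 2 lay within the range of the cKO libraries, and the other controls were well below it. The means were 12.4 ± 1.25 and 8.74 ± 3.21 CPM (SD, n = 3 each), and the log2 fold change of 0.51 (standard error 0.219, 95% interval 0.017 to 0.99) did not pass the test (adjusted p = 0.0813). The value depended on single libraries: it was 0.84 without control replicate 2 (adjusted p = 0.00207) and 0.34 without control replicate 1 (0.245), 0.39 without control replicate 3 (0.207) and 0.42 without cKO replicate 3 (0.201). DESeq2 with all libraries gave an adjusted p of 0.0456.

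IL-12 and its relatives are made of paired chains, so the other chains were counted too. *Il12b*, the p40 chain that joins p35 in IL-12, had 0 counts in all 6 libraries. *Ebi3*, which joins p35 in IL-35 and p28 in IL-27, was well measured and rose. It had 67.1, 70.0 and 55.3 CPM in cKO and 47.1, 52.9 and 49.4 CPM in control libraries, with no overlap and a log2 difference of 0.37 (standard error 0.0926, adjusted p = 0.00804). *Il23a* (p19) had 0, 4 and 9 counts in cKO and 0, 12 and 0 counts in control libraries, and *Il27* (p28) had 6 counts in cKO replicate 3 and 0 in the other 5 libraries. The 2 chains of IL-35 were therefore the only ones of this family with more than 12 counts in any library.

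*Il10*, at chr1:131019845-131024974 on the plus strand, was low in both groups and lower in cKO. It had 13, 10 and 14 counts in cKO and 50, 20 and 36 counts in control libraries, with no overlap. The means were 0.280 ± 0.0542 CPM in cKO and 0.830 ± 0.302 CPM in control (SD, n = 3 each), a 2.96-fold lower level in cKO and a log2 fold change of −1.57 (standard error 0.53, 95% interval −2.75 to −0.38, adjusted p = 0.0314). The call rested on few counts. It was lost under 7 of 15 alternatives, including DESeq2 (adjusted p = 0.051) and every omission of 1 library other than control replicate 2 (adjusted p from 0.0651 to 0.139). With counts divided by 4 *Il10* was too low to test. *Il6*, at chr5:30013114-30019981, had 3 counts in cKO replicate 1 and 0 in the other 5 libraries, so no level could be given for either group.

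**Figure D2:**
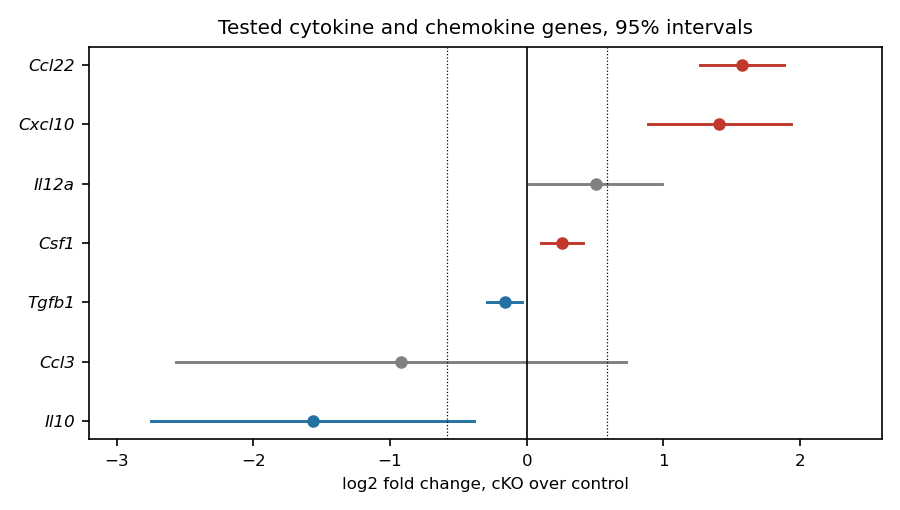
Log2 fold changes of cKO over control for the 7 tested genes, with points for the fitted values, lines for 95% intervals, a solid line at 0 and dotted lines at 1.5-fold. Red and blue mark genes called higher and lower and gray marks the others, and only *Ccl22* and *Cxcl10* lie wholly outside 1.5-fold.

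Levels were compared between genes only per transcript length, as CPM per kilobase of transcript (RPKM). In control libraries the order was *Tgfb1* at 93.1 ± 4.04, *Ccl22* at 57.6 ± 3.53, *Csf1* at 26.4 ± 2.27, *Il12a* at 6.90 ± 2.53, *Cxcl10* at 1.58 ± 0.396, *Ccl3* at 1.14 ± 0.526 and *Il10* at 0.634 ± 0.230 RPKM (SD, n = 3 each). Library ranges did not overlap between neighbors down to *Il12a* and *Cxcl10*, and did overlap between *Cxcl10* and *Ccl3* and between *Ccl3* and *Il10*. In cKO libraries *Ccl22* came first at 172 ± 38.3 RPKM, with 129 to 201 across libraries, and *Tgfb1* was next at 83.3 ± 4.84 RPKM, with 78.2 to 87.8. The order of these 2 genes was thus opposite in the groups, without overlap in either. Among 15869 genes with a known length, *Ccl22* ranked 1274 in control and 345 in cKO. *Csf1*, *Il12a* and *Cxcl10* followed in cKO at 31.7 ± 1.83, 9.78 ± 0.983 and 4.21 ± 0.309 RPKM, and *Ccl3* and *Il10*, at 0.602 ± 0.571 and 0.213 ± 0.0414 RPKM, overlapped each other.

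**Figure D3:**
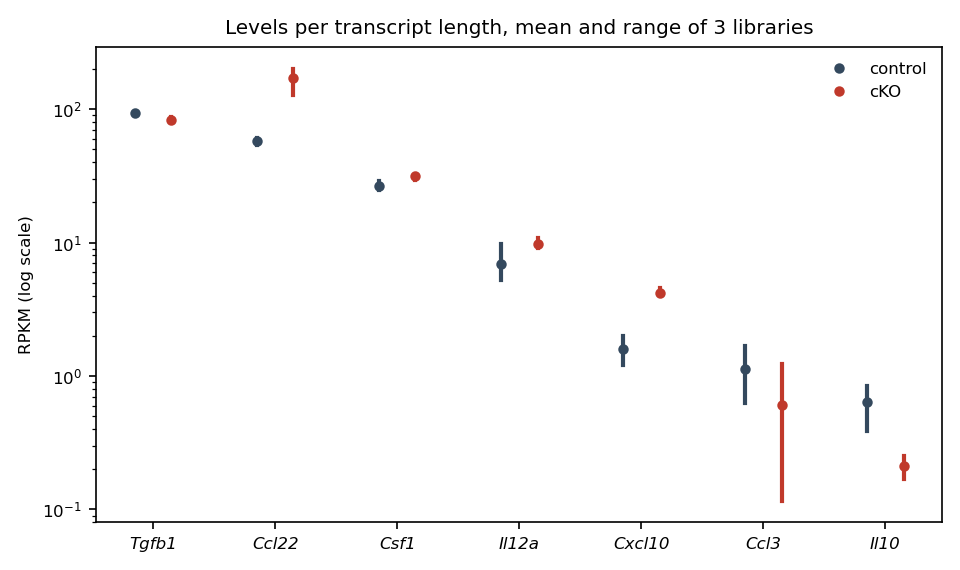
RPKM on a log scale for the 7 tested genes in control and cKO libraries, with points for the mean of 3 libraries and lines for their range. *Tgfb1* is above *Ccl22* in control and below it in cKO, and *Ccl3* has the widest range.

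The transcript table was tested in the same way. The 10 genes had 14 RefSeq transcripts, of which 9 were tested, 2 were higher (*Ccl22*, adjusted p = 0.00239, and *Cxcl10*, adjusted p = 0.0179) and 0 were lower, where 25.1% of all tested transcripts were called in either direction. The transcripts of *Il10* and *Tgfb1* had adjusted p of 0.0616 and 0.102. DESeq2 called 2 of the 14 lower. The count of 2 higher transcripts was 1 without any 1 of cKO replicates 1, 2 and 3 and control replicate 1. *Csf1* was the only gene with several tested transcripts. NM_007778 carried 86.3%, 79.4% and 85.2% of its counts in cKO and 83.4%, 79.0% and 89.6% in control libraries, so its share overlapped between groups. *Il12a* came almost wholly from NM_008351, which held 100% of its counts in 5 libraries and 99.3% in cKO replicate 2.

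Of 15 genes for receptors of these factors 13 were tested, 1 was higher, 7 were lower and 5 did not pass at an adjusted p under 0.05, where 24.1% and 24.5% of all tested genes were higher and lower. Their median log2 fold change was −0.61, beside −0.0040 for all tested genes. *Ccr4*, the receptor of CCL17 and CCL22, went the other way from *Ccl22*: it had 634, 502 and 381 counts in cKO and 2302, 1805 and 1432 counts in control libraries. Its mean was 11.4 ± 2.50 CPM in cKO and 43.9 ± 8.30 CPM in control (SD, n = 3 each), a log2 difference of −1.95 (standard error 0.178, adjusted p = 1.54e-05). *Ackr2*, an atypical receptor that takes up inflammatory CC chemokines, was lower at 0.534 ± 0.281 against 2.56 ± 0.0384 CPM (SD, n = 3 each). *Ccr1* had at most 14 counts, and *Cxcr3*, the CXCL10 receptor, had at most 8 and was not tested.

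Cytokine receptor chains that were lower and past 1.5-fold were *Il6st*, the signaling chain of the IL-6 family (log2 fold change −0.89), *Il12rb1* (−0.82), *Il10rb* (−0.68) and *Tgfbr2*, the ligand-binding TGF-β receptor (−0.61). *Tgfbr2* fell from 232 ± 17.3 to 152 ± 15.3 CPM (SD, n = 3 each), with no overlap. *Il10ra* was lower without passing 1.5-fold (log2 fold change −0.47). *Tgfbr3*, the TGF-β co-receptor betaglycan, was the only one higher, at 6.13 ± 0.386 against 2.23 ± 0.791 CPM (SD, n = 3 each) and a log2 fold change of 1.45 (adjusted p = 0.000746). *Csf1r*, the CSF1 receptor, had at most 4 counts in any library.

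**Figure D4:**
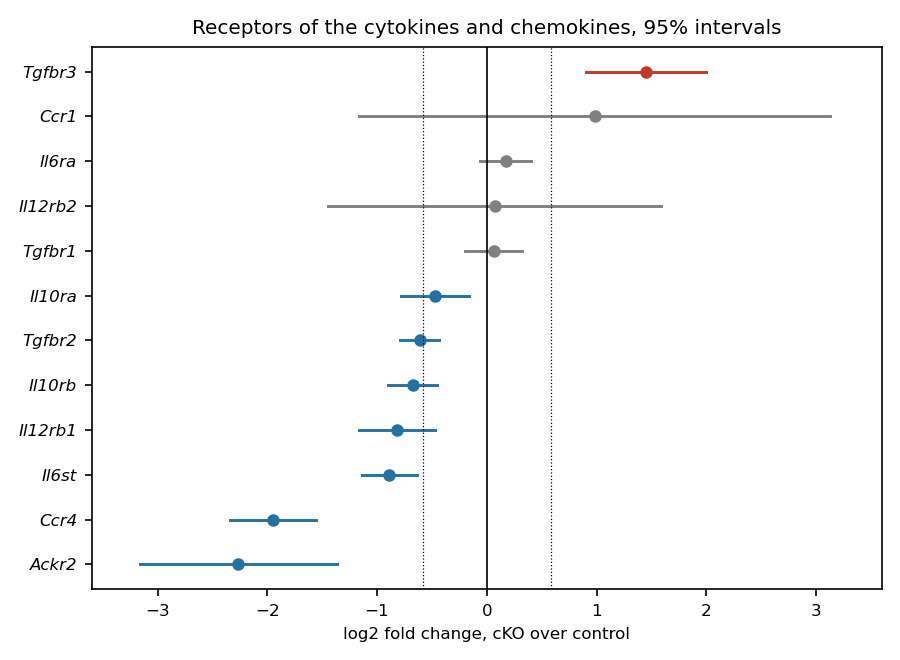
Log2 fold changes of cKO over control for 12 of the 13 tested receptor genes, with points for the fitted values, lines for 95% intervals, a solid line at 0 and dotted lines at 1.5-fold. *Tgfbr3* alone is called higher (red), 7 are called lower (blue) with *Ackr2* and *Ccr4* farthest from 0, and gray marks genes that did not pass.

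TGF-β1 is secreted in a latent complex that other proteins hold and release, and its signal reaches SMAD target genes. Of 11 genes for latent binding and release 9 were tested, 1 was higher and 4 were lower, with the same 24.1% and 24.5% over all tested genes. Their median log2 fold change was −0.11. *Lrrc32* (GARP), which holds latent TGF-β at the cell surface, had 69, 20 and 36 counts in cKO and 545, 351 and 378 counts in control libraries, and fell by 3.42 on the log2 scale (standard error 0.349, adjusted p = 3.1e-05). *Ltbp3*, which binds the latent complex, and *Thbs1*, which can release TGF-β, were lower with log2 fold changes of −1.13 and −0.90. *Nrros*, another surface holder and the one with the most counts, was at 117 ± 4.46 against 126 ± 3.94 CPM (SD, n = 3 each) and did not pass. *Ltbp1* was the only gene of this list that was higher (2 were without control replicate 2), at 1.42 ± 0.146 against 0.383 ± 0.149 CPM.

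Of 11 SMAD target genes 10 were tested, 7 were lower and 1 was higher, where 24.5% and 24.1% of all tested genes were. Their median log2 fold change was −0.71, beside −0.0040 for all tested genes. *Id3* fell from 247 ± 16.7 to 64.6 ± 5.12 CPM (SD, n = 3 each; log2 fold change −1.93, adjusted p = 3.42e-07). *Id2* (−1.22) and *Skil* (−0.95) were also lower and past 1.5-fold on the log2 scale. *Id2* and *Id3* encode inhibitors of E proteins and also answer signals other than TGF-β. *Smad7*, the inhibitory SMAD, was higher, at 89.2 ± 10.1 against 72.1 ± 3.07 CPM (SD, n = 3 each; log2 fold change 0.31, adjusted p = 0.00922).

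**Figure D5:**
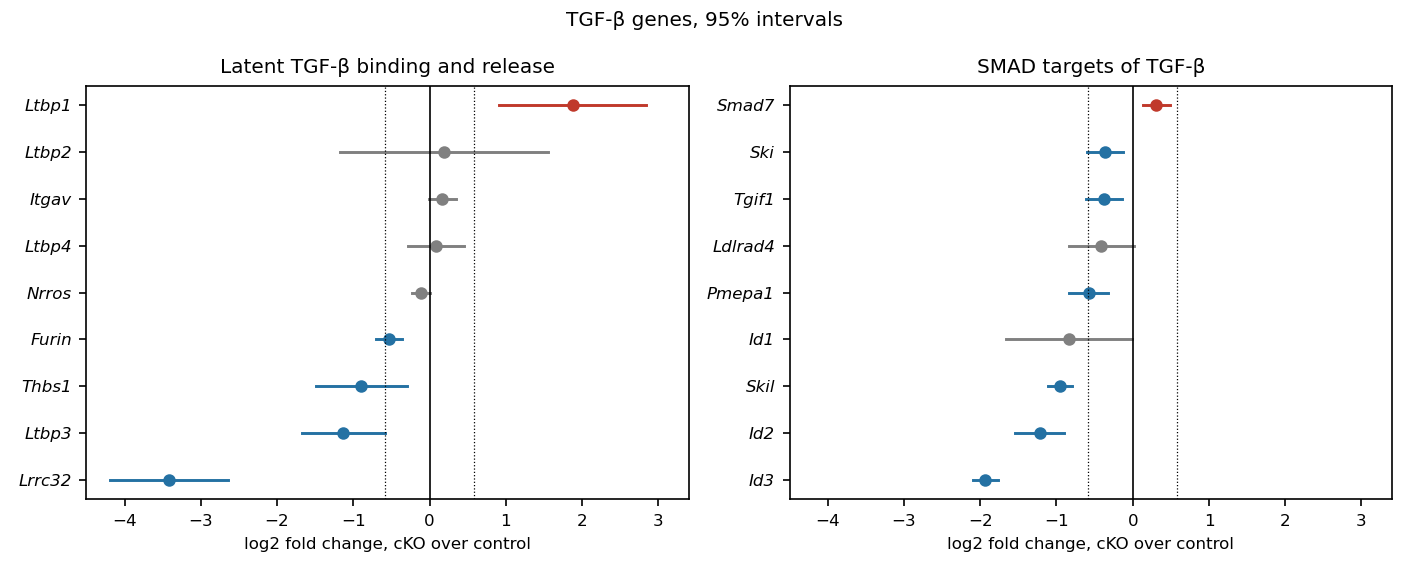
Log2 fold changes of cKO over control for the tested genes of latent TGF-β binding and release and for 9 of the 10 tested SMAD targets, with points for the fitted values, lines for 95% intervals, a solid line at 0 and dotted lines at 1.5-fold. *Lrrc32* and *Id3* are farthest below 0 in their panels, and red, blue and gray mark genes called higher, called lower and not called.

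Of 29 other chemokine genes 10 were tested, 10 had 0 counts in all 6 libraries and the other 9 were too low to test. *Ccl5*, which draws T cells, was higher at 2.28 ± 0.296 against 0.704 ± 0.138 CPM (SD, n = 3 each; log2 fold change 1.69, adjusted p = 0.00143). *Ccl25* was higher with an adjusted p of 0.048, and no other chemokine gene passed. The count of 2 was 1 with total counts only, with no filter on low counts and without any 1 of cKO replicates 1, 2 and 3 and control replicate 3. Of 46 other interleukin and cytokine genes 15 had 0 counts throughout and 21 were tested, with 3 higher and 8 lower. These counts were 0 higher with at least 10 counts required in every library and 5 lower without control replicate 3. *Il16*, a chemoattractant of CD4+ cells, fell from 157 ± 12.5 to 79.2 ± 4.91 CPM (SD, n = 3 each; log2 fold change −0.99, adjusted p = 4.29e-06). *Vegfa* (log2 fold change −0.83) and *Tnf* (−0.73) were lower, and *Il18* was higher (2.21). Over all 6 lists together, 64 of 116 genes were tested, 9 were higher and 26 were lower, against 24.1% higher and 24.5% lower of all tested genes. Their median log2 fold change was −0.37.

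Some marker lists differed between the groups, and their part in these results was not tested. Germinal center B cell markers summed to 401 to 416 CPM in cKO and 552 to 621 CPM in control libraries, with 5 of 8 lower, *Fas* higher (log2 fold change 0.41) and 2 that did not pass, where 24.5% of all tested genes were lower and 24.1% were higher. Plasma cell markers summed to 522 to 529 against 768 to 886 CPM, with 4 of 5 tested lower, among them *Jchain*, and *Sdc1* higher (log2 fold change 1.60), beside the same shares over all tested genes. Fibroblast markers summed to 95.5 to 110 CPM in cKO and 57.4 to 116 CPM in control libraries, overlapping between groups. Of 9 tested, 2 were higher in cKO, *Fn1* and *Col5a1* (log2 fold change 1.07 and 1.61), and 0 were lower, beside the same shares over all tested genes. *Col1a1*, *Col1a2*, *Col3a1*, *Col6a1*, *Pdgfrb* and *Sparc* were lower and *Bgn* was higher, all without passing. The median log2 fold change of the 9 was −0.24. The feeder line is a fibroblast line, and the sort was for YFP+ cells. *Lum* and *Postn* had 0 counts in all libraries. The 11 macrophage and monocyte markers summed to 13.1 to 14.2 CPM in cKO and 10.7 to 13.1 CPM in control. *Cd14*, *S100a8* and *S100a9* had 0 counts in all libraries. Of the 4 tested, only *Adgre1* passed, and it was higher in cKO (log2 fold change 1.96), as were the chemokines *Ccl22* and *Cxcl10*. *Adgre1* had 3.64, 4.67 and 5.54 CPM in cKO and 0.620, 0.916 and 2.02 CPM in control libraries. *Cd68* (log2 fold change −0.32, adjusted p = 0.0600) and *Itgam* (−1.08) were lower and *Mrc1* (0.75) was higher, without passing. Dendritic cell markers summed to 41.6 to 56.5 CPM in cKO and 48.9 to 55.9 CPM in control, where *Zbtb46* was higher in cKO (log2 fold change 0.83, adjusted p = 0.000471), as was *Ccl22*, *Flt3* was lower (−0.70, adjusted p = 0.0143) and *Siglech* had 0 counts. T cell markers summed to 2.83 to 3.50 CPM in cKO and 7.29 to 12.4 CPM in control, nearly all from *Cd5* and *Lat*, and *Cd3e* had 0 counts.

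The directions were also compared within libraries of like *Xist* level, as differences of mean log2 CPM. For *Ccl22* the difference was 1.76 among libraries with high *Xist* and 1.52 among the others, and for *Cxcl10* it was 1.57 and 1.09. *Csf1* (0.24 and 0.31), *Tgfb1* (−0.15 and −0.17) and *Il10* (−1.71 and −1.47) also kept their direction, without overlap in either subset, and *Ccl3* was lower in cKO in both without overlap (−2.70 and −1.14). *Il12a* (0.39 and 0.81) overlapped among libraries with high *Xist*. Each subset held 3 libraries, too few for a test. With high *Xist*, cKO replicate 2 stood against control replicates 1 and 2, and in the other subset control replicate 3 stood against cKO replicates 1 and 3. With 1 library against 2, a lack of overlap says little. In the whole set an exact permutation test of 3 against 3 cannot give a two-sided p below 0.1.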

How the data were processed

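Reads were trimmed, aligned (HISAT2) and quantified (StringTie) by the authors, whose 2 deposited tables of estimated counts, for genes and for RefSeq transcripts, came from prepDE. The submitters' processing notes name mm10. Tool versions, the read length setting and strand handling are not given in the sources used here. The values were raw and already whole, and rounding had no effect. Columns were matched to mice by the sample labels. The design text says that the B cells came from individual mice.

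Totals were 39079582 to 45504570 counts per library. After filterByExpr (minimum count 10), genes were tested over the whole table with the quasi-likelihood test of edgeR 4.0.16 in R 4.3.3, with TMM factors, no covariate and Benjamini-Hochberg adjustment, cKO against control. Intervals are at 95%. CPM and RPKM were computed here, RPKM with transcript lengths from GENCODE M21, and a gene had a length where transcripts with a known length held at least 0.8 of its counts. RefSeq transcripts were assigned to genes by an NCBI table that matched 34674 of 36026. Gene locations came from GENCODE M21 (GRCm38) by symbol.

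The members and lists were chosen with earlier results of these data known. All 10 members were named; from each list, at most 6 genes per direction past an adjusted p of 0.05 and 1.5-fold with a mean of at least 1 CPM, largest fold first; the IL-12 partner chains; *Eif3e*; markers that moved with a member; and, for members at 10 CPM or more, the 3 genes with the most similar profile. All other genes named were chosen after their values were seen, among them *Art3*, *Ccr1*, *Cxcr3*, *Csf1r*, *Il10ra*, *Nrros*, *Ltbp1*, *Smad7*, *Ltb*, *Lta*, *Mif*, *Clcf1*, *Flt3l*, *Col1a1*, *Cd68* and the markers with 0 counts. The values of 2 listed genes are not reported here or plotted, but are part of the counts and medians of their lists.

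The edgeR fit above and the DESeq2 1.42.0 fit were tested on simulated data of 13296 genes, 200 of which were changed by 2-fold: edgeR recovered 90.5% with 12 false calls and DESeq2 87.5% with 11. The other settings were not simulated. Alternatives were DESeq2, DESeq2 size factors, total counts, no filter, at least 10 counts in every library, the replicate number as a block, counts divided by 2, omission of immunoglobulin genes, an *Xist* covariate, a test against 1.5-fold and each library left out. Division by 4 was an alternative chosen after seeing the data.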

Additional observations from a re-analysis of the deposited data

How the results depend on the processing

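The 3 genes called higher (*Ccl22*, *Cxcl10*, *Csf1*) kept their call under all 16 alternatives, with log2 fold changes of 1.45 to 1.75 for *Ccl22*, 1.24 to 1.61 for *Cxcl10* and 0.21 to 0.33 for *Csf1*. None of the 7 tested cytokine and chemokine genes changed direction in any fit that included it. The count of genes called lower, 2 (*Tgfb1*, *Il10*), was 1 with DESeq2, DESeq2 size factors, no filter, at least 10 counts in every library, counts divided by 4 and the *Xist* covariate, 0 with the replicate number as a block, and 0 to 1 with single libraries left out. The count past 1.5-fold and lower, 1 (*Il10*), was 0 with DESeq2, the block, counts divided by 4 and a test against 1.5-fold, and 0 to 1 with single libraries left out. With the block, *Il10* and *Tgfb1* had adjusted p of 0.0669 and 0.0518 and *Il12a* passed at 0.0454; without control replicate 2, *Il12a* had 0.00207. Replicate numbers were not taken to pair the samples: same-numbered libraries correlated at 0.010, 0.073 and 0.107 in their deviations from group means. Among transcripts, the count lower, 0, was 2 with DESeq2 and 1 with counts divided by 2, and the count higher, 2, was 1 with the block and 1 to 3 with single libraries left out. The cause of these changes was not tested. *Ccl3*, *Ccl4*, *Ccl17*, *Il6* and *Il10* had at most 53 counts in any library.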

Other observations

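The genes whose log2 CPM followed a cytokine gene most closely over the 6 libraries were found among 13295 other tested genes. For *Ccl22* they were *Peg10*, *Aldh9a1* and *Pelo*, each with Pearson's r of at least 0.998, and 938 genes had r over 0.95. For *Csf1* they were *Opa1*, *Aamp* and *Ptpn12* (r of 0.991 to 0.993, 125 genes over 0.95), for *Tgfb1* *Ubxn10*, *BC020402* and *G530011O06Rik* (r of 0.992 to 0.995, 62 genes over 0.95) and for *Il12a* *Orm2*, *Mark4* and *A630066F11Rik* (r of 0.993 to 0.997, 48 genes over 0.95). These values describe 6 libraries in 2 groups, which share the cKO and control difference, and were not tested.

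Some listed cytokine genes were lower in cKO by less than 1.5-fold. *Ltb*, which encodes lymphotoxin β, was at 338 ± 29.4 against 502 ± 3.78 CPM, and *Lta* at 24.8 ± 1.62 against 31.6 ± 4.23 CPM (SD, n = 3 each), with log2 fold changes of −0.57 and −0.35 (adjusted p = 5.56e-05 and 0.0238 from edgeR). *Mif* averaged 511 ± 60.8 CPM against 594 ± 27.6 CPM in the controls (SD, n = 3 each; log2 fold change −0.22, adjusted p = 0.0463). *Clcf1* and *Flt3l* were lower too (log2 fold change −0.48 and −0.42). These genes were chosen after their values were seen.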
